A study of Mus musculus with 6 samples.

Results

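Mural cells of the mouse sciatic nerve were examined 5 days after partial sciatic nerve ligation (PSNL), an injury model of neuropathic pain in which part of the nerve is tied off. The cells were chosen by their own counts in the single library of that time point. A barcode was taken as a cell when it held at least 1000 unique molecular identifiers (UMIs, each a counted RNA molecule) with under 10% of them mitochondrial. A cell was taken as a mural cell when the raw UMIs of Notch3, Rgs5, Kcnj8, Abcc9 and Myh11 summed to at least 5 and Pdgfra, Sox10 and Cdh5 were each at 0. This left 143 mural cells of 1482 cells in the day 5 library (9.65%, exact binomial 95% interval 8.19 to 11.3%), out of 11524 cells in the 5 libraries analysed.

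Mural cells wrap the outside of blood vessels. Vascular smooth muscle cells encircle arteries and arterioles and contract through an actin and myosin apparatus, of which Myh11 is the smooth muscle myosin heavy chain, whereas pericytes lie along capillaries within the basement membrane that they share with the endothelium and carry the potassium channel subunits Kcnj8 and Abcc9. Notch3 receives Jagged signals from neighbouring vessel cells, and Rgs5 damps G-protein signalling; Pdgfra marks fibroblasts, Sox10 Schwann cells and Cdh5 endothelial cells.

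Each library came from 4 pooled sciatic nerves of adult C57BL/6J wild-type mice of both sexes, and live nucleated cells were sorted as DRAQ5+, DAPI-, myelin-, CD45- and Ter119-, a sort aimed against myelin, leukocytes and red blood cells. The day 5 library was made in batch 2, together with a PSNL and a sham library taken at month 2, and batch 1 added a further PSNL and a further sham library at month 2. Its sample title names the surgery SNL and the time 5 days, while the description of the series speaks of 1 week. A sham library of day 5 was not used here, so no sham-operated nerve of the same day stands beside these cells. With 1 library at day 5, no test between conditions could be made, time after injury cannot be told apart from the library, and every interval is a 95% interval that covers counting error only.

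The main context was the 562 of 3777 cells (14.9%) that passed the same gate in the PSNL library of month 2, batch 2. The gate also held 269 cells in PSNL batch 1, 276 in sham batch 2 and 29 in sham batch 1, and the values of these month 2 libraries are given for the main genes. A single comparison value is that of PSNL batch 2. The day 5 library was the deeper one, with a median of 11479 UMIs per mural cell (range 1005 to 55747) against 4119.5 at month 2 in batch 2. Over the 143 cells 1727666 UMIs were counted, and over the 562 cells 2385405. Levels are therefore given as CPM, the UMIs of a gene in each 1000000 UMIs summed over a group of cells. Cells of the day 5 library shared 2 barcodes with PSNL batch 2, 3 with PSNL batch 1, 2 with sham batch 1 and 0 with sham batch 2, and 0 of them belonged to day 5 mural cells.

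The gate left a clear edge at day 5. The summed UMIs of the gate genes had a median of 93 per mural cell and reached 694. Just outside the threshold, 2 cells had a sum of 4, with 0 Acta2 UMIs and 706 Col1a1 UMIs between them, and 0 cells had a sum of 3. Just inside, 1 cell had a sum of 5, with 0 UMIs of Acta2, Col1a1 and Pdgfrb, and 0 cells had 6 or 7. The clauses on Pdgfra, Sox10 and Cdh5 removed 13 further cells, 7, 1 and 6 of them for each gene in turn, with some overlap. All 5 gate genes were found in 48 mural cells, 4 of them in 31, 3 in 46, 2 in 16 and a single gate gene in 2.

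Levels of the gate genes are a description, since they chose the cells. Notch3 stood at 724 CPM at day 5 and 717 CPM at month 2 in PSNL batch 2. Rgs5 stood at 5831 CPM and 1741 CPM, and Myh11 at 2197 CPM and 3163 CPM. Kcnj8 stood at 130 CPM and 82.2 CPM, and its partner Abcc9 at 230 CPM and 125 CPM.

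Genes outside the gate that mark mural cells were present as the name requires. Acta2, the smooth muscle actin (chromosome 19, 34241090 to 34255590, minus strand, GRCm38), was counted in 140 of the 143 mural cells at 15764 CPM, beside 235 CPM in day 5 cells with at least 2 Pdgfra UMIs, 2.69 CPM in those with at least 2 Sox10 UMIs and 24.8 CPM in those with at least 2 Cdh5 UMIs. When each cell was thinned to 1000 UMIs, 90.9% of mural cells kept an Acta2 UMI (85.0 to 95.1%), against 8.33% of the 192 Pdgfra-gated cells, 0% of the 357 Sox10-gated cells and 1.75% of the 400 Cdh5-gated cells, whose median depths were 13132, 14164 and 11496 UMIs. Pdgfrb, the receptor through which platelet-derived growth factor recruits mural cells, was at 620 CPM, and Vtn, the pericyte gene for vitronectin, at 143 CPM.

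Markers of other cell types were measured in the same sums. Of 16 fibroblast markers 13 had UMIs, at a summed 5610 CPM in day 5 mural cells against 1055 to 2196 CPM over the month 2 libraries, with Pdgfra, Dpp4 and Clec3b at 0. Most of the day 5 sum was Col1a1 (1874 CPM) and Col3a1 (1914 CPM), collagens that are also in the matrix list below. Dcn (7.52 CPM against 82.6 CPM) and Igfbp6 (1.16 CPM against 91.4 CPM), of the same markers, were lower than in PSNL month 2, batch 2. The fibroblast sum was 3964 CPM on the Myh11 side and 7932 CPM on the Kcnj8 and Abcc9 side, which are defined below. Of 14 Schwann cell markers 7 had UMIs, at 245 CPM (70.8 to 301 CPM at month 2), with Mbp and Cdh19 among those at 0, and of 15 endothelial markers 10 had UMIs, at 561 CPM (281 to 496 CPM). Immune markers summed to 20.3 CPM (0 to 5.45 CPM at month 2), and the erythroid markers were at 0. The muscle satellite list stood at 810 CPM, nearly all of it Des, with Pax7 at 0. Scrublet, a doublet caller, marked 10 of the 1482 day 5 cells and 0 of the mural cells.

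The first comparison asked what set mural cells apart from the other 1339 cells of the day 5 nerve of the same library, among them the 192, 357 and 400 cells of the Pdgfra, Sox10 and Cdh5 gates. Leukocytes were also among them, with immune markers at 1597 CPM and at least 5 such UMIs in 118 cells. A gene was called when the 2 sums held at least 20 UMIs, the CPM ratio was at least 4 in either direction and the counting interval of the ratio excluded 1, with a count of 0 set to a floor of 3 counts. Among 17405 genes outside the gate, 580 were called higher in mural cells (3.33%) and 1240 lower (7.12%). The gate chose cells by genes that vary with cell type, so these counts describe the cells and no test was made.

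Contractile genes led the difference. Of 22 genes of the contractile list 20 were called higher and 0 lower, with a median log2 ratio of 5.54 against -0.23 over all genes. Tagln, an actin-binding protein of smooth muscle, was at 8313 CPM, Mylk, the kinase that starts contraction by phosphorylating myosin light chain, at 2370 CPM, and Myl9, that light chain, at 4429 CPM. The ratios on the log2 scale were 6.23, 5.54 and 6.63. Of 22 other mural identity genes 16 were called higher and 0 lower, among them Higd1b (8.02), Ndufa4l2 (5.84), Gja4, the gap junction protein connexin 37 (4.48), and Pdgfrb (4.01).

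Vessel tone genes followed. Of 35 ion channels and vasoactive receptors 24 were called higher and 2, Ramp2 and Adm, lower. Both subunits of the nitric oxide receptor guanylate cyclase, the channel gene Trpc6 (log2 ratio 7.73), the potassium channel gene Kcnk3 (6.87) and the endothelin receptor gene Ednra (4.31) were among those called. Rgs4, a relative of Rgs5, was at 248 CPM in mural cells with a log2 ratio of 6.40. Of 20 smooth muscle transcription genes, 3 were called higher and 2 lower, and Myocd, the coactivator that switches on contractile genes, was at 53.2 CPM with a log2 ratio of 6.93.

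Myocardin acts with serum response factor at CArG boxes, and the RefSeq sequence (GRCm38.p6) before the start of Myl9 holds such a box. The 250 bases before the start site, chr2:156775214-156775463 on the plus strand, are shown because Myl9 was among the contractile genes called, with the CArG box (motif length 10) in capitals, its first base 161 bases before the start.
Myl9: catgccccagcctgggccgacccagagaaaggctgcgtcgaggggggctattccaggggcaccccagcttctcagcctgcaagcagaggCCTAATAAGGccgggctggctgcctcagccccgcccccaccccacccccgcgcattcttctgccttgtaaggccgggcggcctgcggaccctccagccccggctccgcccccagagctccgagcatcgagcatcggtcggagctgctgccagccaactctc
Promoter windows of 250 bases before to 50 after the start were searched on both strands. A CArG box was found in 2 of the 20 contractile genes with a window, Myl6 and Myl9, and in 1.81% of all 27025 genes. Such a match describes letters in the window and not a bound site.

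Several secreted signals were lower in mural cells than in the other day 5 cells. Of 36 cytokines and pain mediators 15 were called lower, among them Cxcl5, Cxcl14, Il1b, Ptgs2, Artn and Gdnf, 20 were not called, and Ccl19 alone was called higher (130 CPM, log2 ratio 3.15). Lif had 0 UMIs in the 143 mural cells, so that up to 2.10% of such cells could hold a UMI. Thy1, a surface glycoprotein, was also higher (353 CPM, log2 ratio 2.82), while the TGF-beta, BMP and YAP list went both ways. Of its 24 genes Ankrd1, Inhba, Id4, Tgfb2, Bmp2 and Tgfb3 were called higher and Bmp4, Tgfbi, Ltbp2 and Bambi lower, with a median log2 ratio of 0.05. Of 39 extracellular matrix genes Mgp was called higher (2.52) and 7 were lower, where 3.33% of all genes were called higher and 7.12% lower.

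The largest ratios by rule, among called genes with at least 50 UMIs in the higher sum, belonged to Cox4i2, Acan, Tesc, Fhl5, Olfr558, Susd5, Lmod1, Higd1b, Mrvi1 and H2-M9. Cox4i2, a subunit of cytochrome oxidase, was at 195 CPM with a log2 ratio of 10.61, and Lmod1, which builds actin filaments in smooth muscle, at 414 CPM with a ratio of 8.12. Aggrecan, the cartilage proteoglycan encoded by Acan, had 125 UMIs in 27 mural cells and a log2 ratio of 9.18. Cell cycle genes gave a single call of 40, Ccnd2 (571 CPM, log2 ratio 3.46), where 3.33% of all genes were called higher. By its higher calls this list could not be set apart from all genes.

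The Notch pathway went both ways against the other day 5 cells, with a median log2 ratio of -0.40. The ligand gene Jag1 was at 445 CPM with a log2 ratio of 2.92, and the target genes Heyl, at 196 CPM, and Hey2, at 53.8 CPM, had ratios of 6.10 and 5.85. Of 15 Notch genes outside the gate these 3 were called higher, and Mfng, Dll4 and Jag2 were called lower. When thinned to 1000 UMIs, 14.7% of mural cells had a Heyl UMI (9.33 to 21.6%, 66.4% unthinned), against 0% in the Pdgfra, Sox10 and Cdh5 gates.

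The mural cells were spread along a line from Myh11 to Kcnj8 and Abcc9. A cell was put on the Myh11 side when its Myh11 UMIs exceeded the sum of its Kcnj8 and Abcc9 UMIs, and on the other side in the reverse case. The Myh11 side held 92 cells (64.3%, 55.9 to 72.2%), the Kcnj8 and Abcc9 side 47 (32.9%, 25.2 to 41.2%), and in 4 cells the counts were equal. These are ranges cut from raw counts and not cell types. UMIs of both kinds were found in 73 cells, 38 had at least 3 of each, and in 24 cells the 2 counts differed by at most 2 UMIs.

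**Figure D1:**
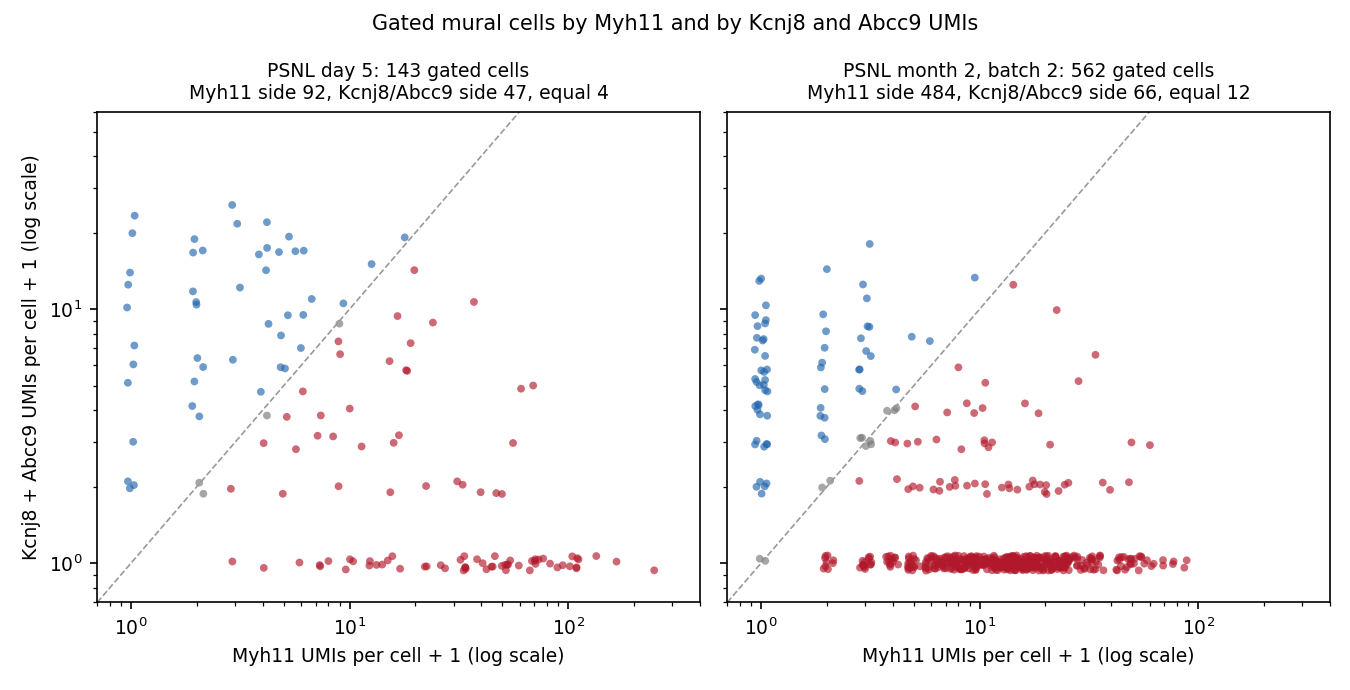
Myh11 UMIs (x axis) against the sum of Kcnj8 and Abcc9 UMIs (y axis) in each gated mural cell, both with 1 added and on log scales, at PSNL day 5 (left) and PSNL month 2, batch 2 (right). Red points are on the Myh11 side, blue points on the Kcnj8 and Abcc9 side and grey points are equal, with slight jitter; the blue points are 47 of 143 at day 5 and 66 of 562 at month 2.

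At month 2 the Kcnj8 and Abcc9 side took a smaller share of the gated cells. It was 11.7% in PSNL batch 2 (9.20 to 14.7%), 14.9% in PSNL batch 1, 16.7% in sham batch 2 and 13.8% in sham batch 1, where it rested on 4 cells. With every cell of at least 3000 UMIs thinned to 3000, the share was 28.6% of 140 gated cells at day 5 (21.3 to 36.8%) against 7.17% (4.99 to 9.93%) in PSNL batch 2, 12.5% in PSNL batch 1, 13.1% in sham batch 2 and 2 of 25 cells in sham batch 1. The day 5 share lay above that of each month 2 library at both depths. The sides are cut by gate genes, which also chose the cells, so the shares are a description at either depth. The effect of the gate on the shares was not tested. The UMI sums that follow were 1159035 on the Myh11 side and 501122 on the Kcnj8 and Abcc9 side.

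Contractile genes set the sides apart. Of 8372 genes tested between the sides, 228 were called higher on the Myh11 side (2.72%) and 111 on the Kcnj8 and Abcc9 side (1.33%). The sides were cut by Myh11, Kcnj8 and Abcc9 in the same cells, so these values too are a description. In the contractile list 9 of 22 were called higher on the Myh11 side and 0 on the other, with a median log2 ratio of 1.97 against -0.14 over all genes. Calponin, encoded by Cnn1, was at 573 CPM on the Myh11 side with a log2 ratio of 5.17, and Tagln was at 11333 CPM and 2185 CPM. Phospholamban, encoded by Pln, which restrains calcium uptake into the sarcoplasmic reticulum, had all 115 of its UMIs outside the Kcnj8 and Abcc9 side. Acta2 stood at 20917 CPM and 5330 CPM, a ratio just short of the call.

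The Kcnj8 and Abcc9 side held more of the receptor and pericyte genes. Steap4 was at 53.5 CPM on the Myh11 side and 409 CPM on the other, and the adhesion receptor gene Adgrf5 at 46.6 CPM and 267 CPM. The angiotensin receptor gene Agtr1a was at 13.8 CPM and 104 CPM, and the alpha-2 adrenergic receptor gene Adra2a at 39.7 CPM and 247 CPM. Pdgfrb stood at 448 CPM and 1016 CPM and Thy1 at 205 CPM and 674 CPM, neither of them called.

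Among the 35 matrix genes tested 2 were called higher on the Myh11 side and 1 on the other. Elastin, encoded by Eln, was at 701 CPM on the Myh11 side and 77.8 CPM on the other, and Lox, the enzyme that crosslinks elastin and collagen, at 158 CPM and 5.99 CPM. The Notch target Hey2 was at 74.2 CPM and 7.98 CPM, and Myocd at 75.9 CPM and 7.98 CPM. Col15a1, a collagen of basement membrane zones, ran the other way, at 27.6 CPM and 204 CPM. Matrix Gla protein, encoded by Mgp, stood at 1461 CPM and 5412 CPM, and Col1a1 at 1094 CPM and 2894 CPM, with neither called, and the median log2 ratio of the matrix genes was -0.89.

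**Figure D2:**
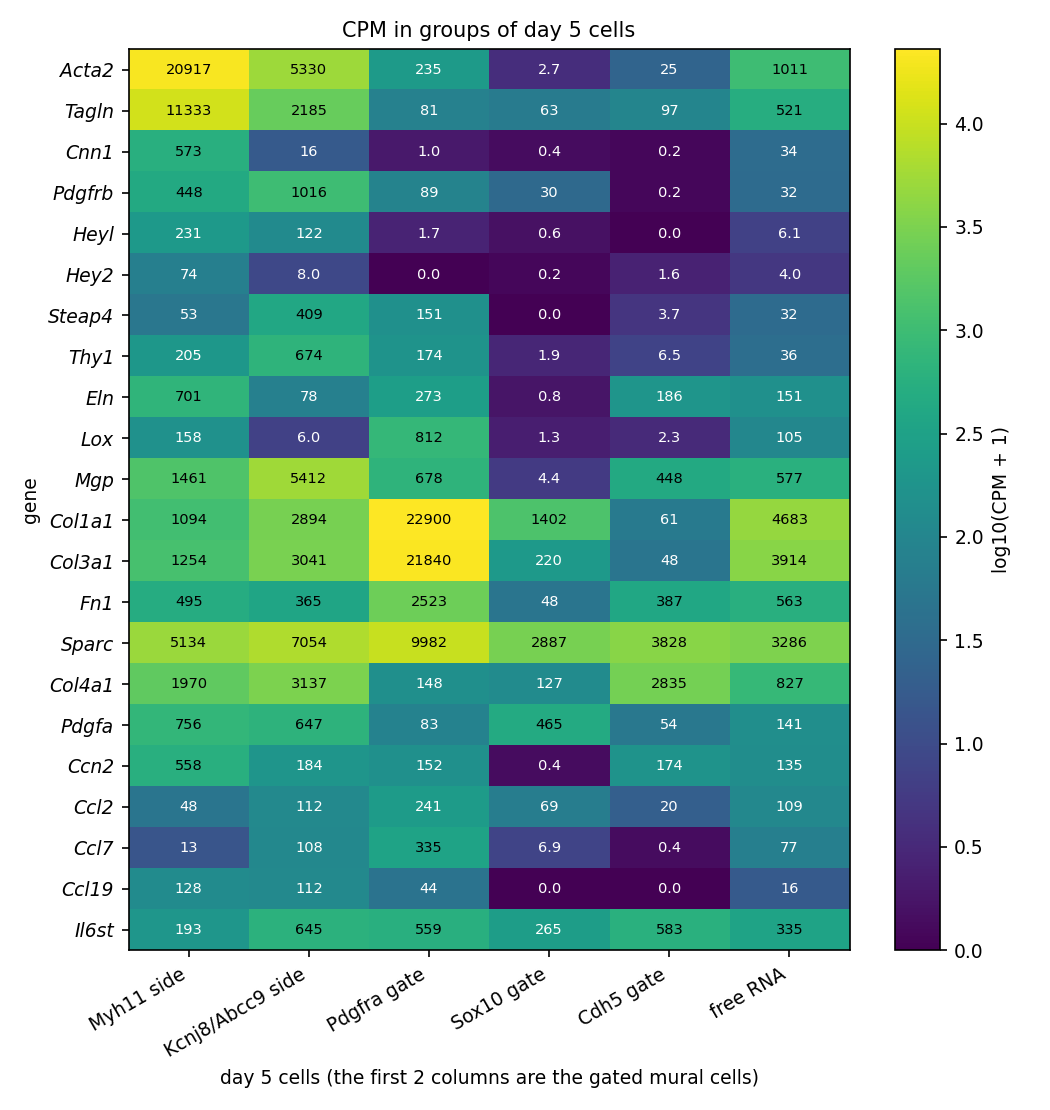
CPM of 22 genes (rows) in groups of day 5 cells (columns), coloured by log10(CPM + 1) and printed in each cell. The columns are the 92 mural cells of the Myh11 side, the 47 of the Kcnj8 and Abcc9 side, the 192 Pdgfra-gated, 357 Sox10-gated and 400 Cdh5-gated cells, and free RNA from barcodes of 10 to 100 UMIs. Heyl is at 231 and 122 CPM on the sides and at most 1.69 in the other cell gates, while Col1a1 is at 22900 CPM in the Pdgfra gate.

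The comparison over time set the day 5 mural cells against the 562 cells gated alike in PSNL month 2, batch 2, from other animals of the same batch. Of 11222 genes tested, 340 were called higher at day 5 (3.03%) and 171 lower (1.52%), with a median log2 ratio of 0.01. For 327 of the genes called higher and 114 of those called lower, the day 5 level also lay outside the range of the month 2 libraries together. The plot of list medians shows how 12 of the gene lists stood.

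**Figure D3:**
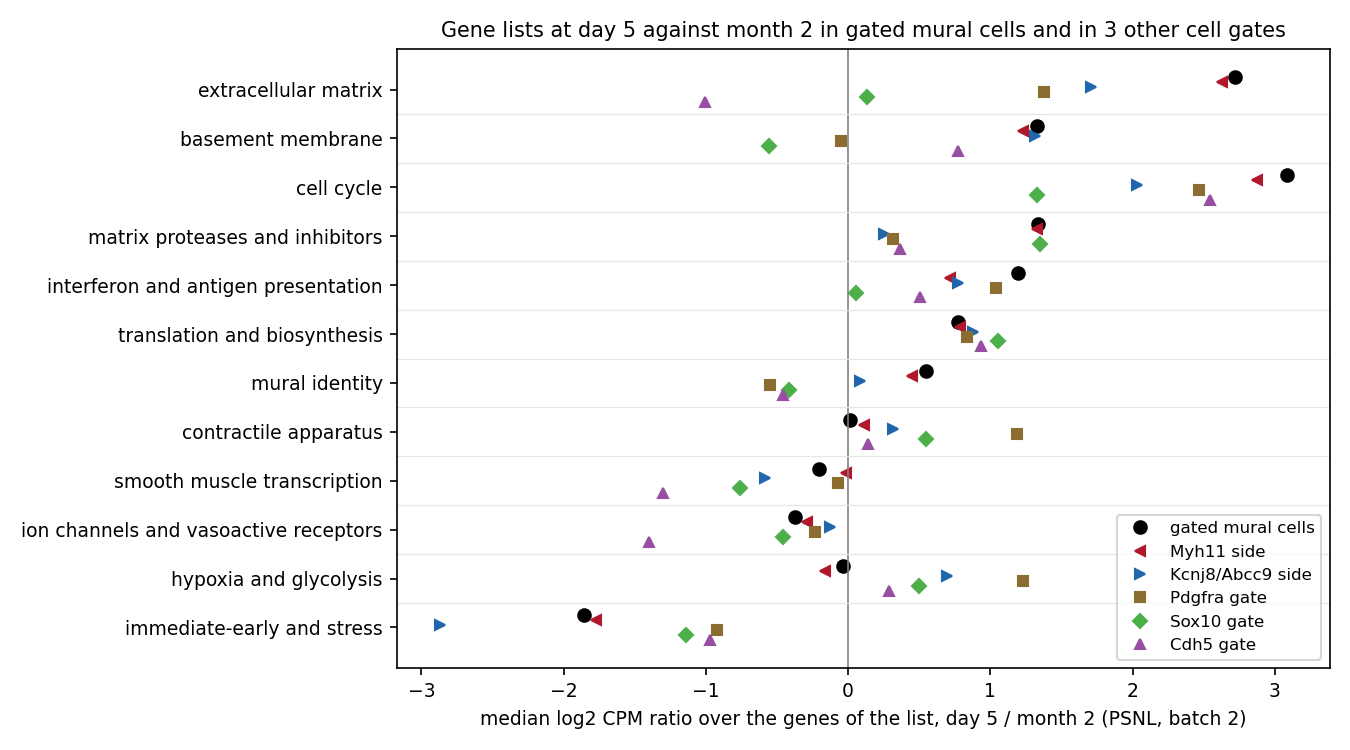
Median log2 CPM ratio of PSNL day 5 to PSNL month 2 (batch 2, x axis) over the tested genes of 12 lists (rows), for the gated mural cells (black circles), their Myh11 and Kcnj8/Abcc9 sides (red and blue triangles) and the Pdgfra, Sox10 and Cdh5 gates (brown squares, green diamonds, purple triangles). In mural cells the extracellular matrix median is 2.72 and that of the immediate-early and stress list -1.86.

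Extracellular matrix genes were higher at day 5 almost throughout. Of 36 tested 28 were called higher and 0 lower, with a median log2 ratio of 2.72. Col1a1, a chain of fibrillar type I collagen (chromosome 11, 94936224 to 94953042, plus strand), was at 1874 CPM at day 5 (1810 to 1940 CPM), and at 126 CPM, 112 CPM, 166 CPM and 28.3 CPM in PSNL batch 2, PSNL batch 1, sham batch 2 and sham batch 1 of month 2. Col3a1, its type III partner, was at 1914 CPM against 211, 244, 317 and 99.2 CPM in the same order. The day 5 level lay above that of each month 2 library for both genes, and the log2 ratios were 3.89 and 3.18.

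Matrix proteins that bind collagens and cells moved in the same direction. Tenascin C, encoded by Tnc, a matrix protein of wounds, was at 140 CPM against 8.80 CPM (log2 ratio 3.99), fibronectin, encoded by Fn1, at 462 CPM against 53.7 CPM (3.11), and periostin, encoded by Postn, at 334 CPM against 50.7 CPM (2.72). Sparc, a collagen-binding protein made by vessel cells, was counted in all 143 cells at 5757 CPM, against 1370, 1083, 1959 and 836 CPM at month 2 (2.07, and 1.56 against sham batch 2). Col12a1 (4.85), Col5a1 (4.15) and Col6a3 (3.16) were also called, whereas the small proteoglycan asporin, encoded by Aspn, stood at 464 CPM against 828 CPM.

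Matrix genes were called on each side of the mural cells taken alone, though not all of them on both. On the Myh11 side 25 of 34 matrix genes were called higher and 0 lower, with a median log2 ratio of 2.63, where 2.52% of all tested genes were called higher and 1.53% lower. On the Kcnj8 and Abcc9 side 12 of 32 were called higher and 0 lower, with a median of 1.71, where 2.7% of all genes were called higher and 1.89% lower. Col3a1 (1.46), Postn (1.09), Mgp (1.71) and Sparc (0.97) were not called on the Kcnj8 and Abcc9 side. Eln ran opposite ways, at a log2 ratio of 2.07 over all mural cells (1.88 against PSNL batch 1) and -0.98 on the Kcnj8 and Abcc9 side.

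Fibroblast RNA is rich in the same collagens, so the matrix values are given with those of other day 5 cells. Col1a1 was at 22900 CPM in the Pdgfra gate, 1402 CPM in the Sox10 gate, 61.2 CPM in the Cdh5 gate and 4683 CPM in free RNA. The fibroblast gene for decorin, Dcn, was at 7.52 CPM in the mural cells (13 UMIs in 9 cells), beside 6100 CPM in the Pdgfra gate, 96.6 CPM in the Cdh5 gate and 932 CPM in free RNA. Thinned to 1000 UMIs, 45.5% of mural cells had a Col1a1 UMI (37.1 to 54.0%, 60.8% unthinned), against 10.7% of the month 2 cells and 3.00% of the Cdh5-gated cells of the same day.

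The matrix UMIs were uneven between cells. The 3238 Col1a1 UMIs lay in 87 of the 143 cells, and a single cell held 15.4% of them. Of the 28 matrix genes called, 15 were above their level in free RNA, while 13, among them Col1a1, Col3a1, Fn1 and Postn, were at or below it. Of the same genes 20 were at least 4-fold above the Cdh5 gate, and 3, Col6a3, Eln and Mgp, were above the Pdgfra gate. Without the tenth of mural cells highest in fibroblast markers, left out after the values were seen, 22 of 34 matrix genes were called with a median of 2.25. In that setting 277 genes were called higher in all. Col1a1, Col1a2 and Col3a1 are in both the fibroblast and the matrix list. The cells left out were thus chosen partly by the matrix genes themselves. The part of free or fibroblast RNA in the remaining difference was not tested.

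**Figure D4:**
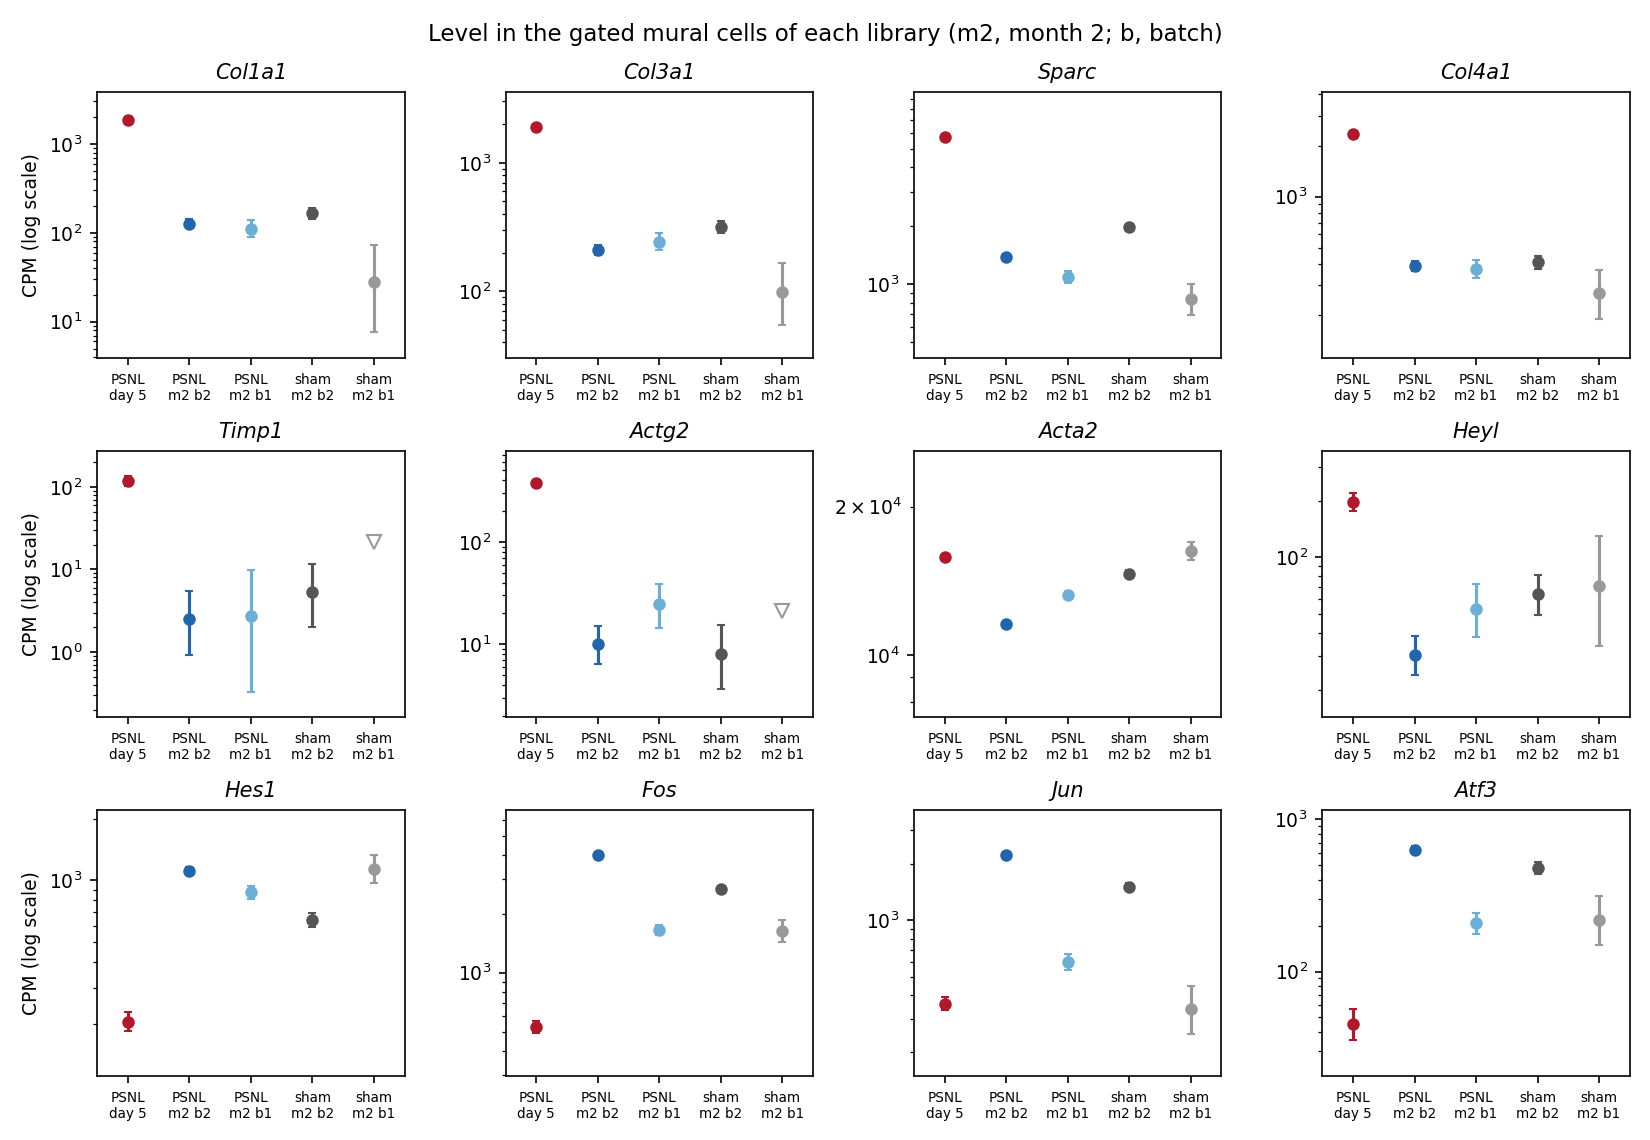
CPM (log scale) of 12 genes in the gated mural cells of each library, with exact Poisson 95% intervals that cover counting error only. Open triangles mark a count of 0 drawn at the floor of 3 counts; Col1a1 at day 5 (1874 CPM) lies above the 4 month 2 libraries (28.3 to 166 CPM), and Fos (528 CPM) lies below them (1629 to 3977 CPM).

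Basement membrane genes formed a group of their own. Of 18 tested 7 were called higher and 0 lower, with a median log2 ratio of 1.33. Col4a1 was at 2354 CPM at day 5 against 390, 376, 409 and 269 CPM in PSNL batch 2, PSNL batch 1, sham batch 2 and sham batch 1, and was counted in 139 of 143 mural cells. It and Col4a2 encode the chains of type IV collagen, the sheet of the basement membrane, and lie head to head on chromosome 8, Col4a1 at 11198423 to 11312826 on the minus strand and Col4a2 at 11312805 to 11449287 on the plus strand. The log2 ratios of the pair were 2.59 and 2.24, and the day 5 level of Col4a1 was 148 CPM in the Pdgfra gate and 2835 CPM in the Cdh5 gate.

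Other basement membrane genes included the collagen gene Col18a1 (883 CPM against 143 CPM, log2 ratio 2.62), the laminin chain gene Lamb1 (86.2 CPM against 3.35 CPM, 4.68), the laminin linker gene Nid1 (2.94) and the fibronectin receptor gene Itga5 (2.95, and 0.44 on the Kcnj8 and Abcc9 side). Of the 7 called, Itga5, Lama2, Lamb1 and Nid1 were at or below their level in free RNA of day 5, and 1 was at least 4-fold above the Cdh5 gate. Both the Cdh5-gated and the Pdgfra-gated cells were above the mural level for Lamb1, at 223 and 292 CPM. The laminin gene Lamc3, at 0 CPM in the Pdgfra, Sox10 and Cdh5 gates, stood at 13.3 CPM against 34.0 CPM. In the Pdgfra gate the same time ratio called 0 of 18 basement membrane genes (2.53% of all genes higher and 2.37% lower), in the Sox10 gate 3 higher and 1 lower (2.92% and 3.5%), and in the Cdh5 gate 2 higher and 2 lower (2.68% and 4.35%). For matrix genes it called 13 of 39 higher in the Pdgfra gate, 6 of 36 in the Sox10 gate and 2 of 34 in the Cdh5 gate, with 0, 4 and 15 lower. The difference between these cell gates was not tested.

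Matrix-cutting enzymes and their inhibitors changed in both directions. Of 20 genes 9 were called higher (45%) and 3 lower (15%), where 3.03% of all genes were called higher and 1.52% lower. Timp1, an inhibitor of matrix metalloproteinases, was at 117 CPM against 2.52, 2.72, 5.40 and 0 CPM over the month 2 libraries (log2 ratio 5.54), in 61 mural cells. Its level in the free RNA of day 5 was 452 CPM, above that of the mural cells. Adamts2, the enzyme that trims procollagen, was at 189 CPM against 15.5 CPM (3.61). The plasminogen activator gene Plat was at 108 CPM against 9.64 CPM (3.48). Of the 9 called higher, 5 were at or below their level in free RNA, Adamts9, Plat, Plau, Plaur and Timp1. Timp4, another inhibitor, was at 18.5 CPM against 147 CPM (-2.99, and -1.56 with no call on the Kcnj8 and Abcc9 side), and the proteoglycan-cutting enzymes Adamts1 (-2.52) and Adamts5 (-2.42) were also lower. Against PSNL batch 1 the ratios of Adamts1 (-0.73) and Adamts5 (-1.53) fell short of 4-fold.

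Of 22 contractile genes 20 were not called over time, and the median log2 ratio was 0.01. The 1 called higher and the 1 called lower were each 4.55%, where 3.03% and 1.52% of all genes were called. With 1 call each way the list could not be set apart from all genes. Acta2 was at 15764 CPM against 11568, 13224, 14613 and 16271 CPM at month 2, within that range. Tagln was at 8313 CPM against 10334 to 14812 CPM, below each month 2 library, and Mylk at 2370 CPM against 2012 CPM. Smooth muscle transcription genes gave 0 calls of 19 in either direction, with Myocd at 53.2 CPM against 86.8 CPM.

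Over all mural cells the called genes were Actg2 and Pln, and on the Myh11 side alone Cnn1 was also called higher. Actg2, the gamma actin of visceral smooth muscle (chromosome 6, 83512905 to 83536265, minus strand), was at 376 CPM against 10.1, 24.5, 8.09 and 0 CPM (log2 ratio 5.22). It was counted in 65 mural cells, the highest with 9.55% of its 649 UMIs, and was called on both sides, at 490 CPM on the Myh11 side and 126 CPM on the Kcnj8 and Abcc9 side. Pln was at 66.6 CPM against 302, 466, 249 and 453 CPM (-2.18, and -1.90 against sham batch 2). It was not called on the Myh11 side (-1.77), and no ratio was taken on the other. Actg2 and Pln both lay outside the month 2 range.

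Identity and tone genes were called higher at 4.55% and 3.12%, near the 3.03% of all genes. Of 22 mural identity genes only Heyl was called over all mural cells. Pdgfrb (620 CPM against 388 CPM), Higd1b (451 CPM against 119 CPM) and Cspg4, the proteoglycan NG2 (351 CPM against 124 CPM), were higher by less than the 4-fold line. On the Myh11 side Higd1b was also called higher (2.09). On the Kcnj8 and Abcc9 side Cspg4 was called higher (2.9) and Rgs4 lower (-2.1). Of 32 ion channels and vasoactive receptors only the endothelin receptor gene Ednrb was called, at 225 CPM against 14.3 CPM (log2 ratio 3.98) and at most 54.9 CPM at month 2. Its ratio was 5.67 on the Myh11 side and 1.16 on the Kcnj8 and Abcc9 side, where it was not called. In the Sox10 gate of day 5 Ednrb was at 172 CPM and in free RNA at 62.5 CPM. The guanylate cyclase gene Gucy1a1 stood at 654 CPM against 1757 CPM, and its ratio of -1.43 was not called.

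The Notch targets moved in opposite directions. Heyl (chromosome 4, 123233556 to 123249875, plus strand) was at 196 CPM against 30.6, 53.1, 63.9 and 70.8 CPM in PSNL batch 2, PSNL batch 1, sham batch 2 and sham batch 1 (log2 ratio 2.68). Hes1 (chromosome 16, 30064384 to 30067796, plus strand) was at 205 CPM against 1116, 874, 642 and 1140 CPM (-2.44). The day 5 level of each lay outside the month 2 range. The call of Heyl came from the Myh11 side, where its ratio was 3.38, while on the Kcnj8 and Abcc9 side it was 0.09. Against PSNL batch 1 the Heyl ratio was 1.88 and against sham batch 2 it was 1.62, and that of Hes1 against sham batch 2 was -1.64, each short of 4-fold. Hes1 was at -1.79 on the Kcnj8 and Abcc9 side, also not called. Thinned to 1000 UMIs, 1.42% of the mural cells of PSNL month 2, batch 2, and 5.80% of those of sham batch 2 had a Heyl UMI. Hey2 (53.8 CPM against 95.6 CPM) and Jag1 (445 CPM against 366 CPM) were not called.

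Cell cycle genes were higher at day 5, and a few cells carried them. Of 36 tested 26 were called higher and 0 lower, with a median log2 ratio of 3.09. Of the 26, 17 were above their level in free RNA, 9 were at or below it, and 0 were at least 4-fold above the Cdh5 gate. Mki67, a marker of dividing cells, had 163 UMIs in 17 day 5 cells against 2 UMIs at month 2 in PSNL batch 2, a ratio of 113 (30.7 to 937). Top2a, which untangles DNA before division, was at 73.5 CPM against 2.93 CPM. At least 5 UMIs of Mki67, Top2a, Cdk1, Ccnb1 and Cenpf together were found in 12 day 5 mural cells (8.39%), 5 on the Myh11 side and 6 on the other, and in 0 mural cells of each month 2 library.

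Those 12 cells held 89.8% of the UMIs of the 5 genes. Their median depth was 17920 UMIs against 10913 in the rest, and their fibroblast markers summed to 9041 CPM against 4983 CPM. Without them, left out after the values were seen, 9 cell cycle genes were called, among 256 genes called higher in all. With all cells thinned to 3000 UMIs before the gate, 5 were called, among 175. As reported, 340 genes were called higher in all. Thinned to 1000 UMIs, 6.99% of day 5 mural cells had a UMI of any of the 5 genes (3.40 to 12.5%, 27.3% unthinned), against 1.07% at month 2 in PSNL batch 2, 1.12% in PSNL batch 1 and 2 of 29 cells in sham batch 1. Among other day 5 cells the thinned share was 7.81% in the Pdgfra gate, 15.4% in the Sox10 gate and 13.3% in the Cdh5 gate, so it was not particular to mural cells.

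Immediate-early genes, which cells switch on quickly after growth factors or stress, were lower at day 5 than in PSNL month 2, batch 2. Of 31 tested 15 were called lower and Hmox1 higher, with a median log2 ratio of -1.86, and a single cell held 38 of the 61 Hmox1 UMIs. Fos, a component of the AP-1 transcription factor (chromosome 12, 85473890 to 85477273, plus strand), was at 528 CPM against 3977, 1645, 2682 and 1629 CPM. Its partner Jun was at 362 CPM against 2234, 603, 1505 and 340 CPM, so 1 month 2 library stood below the day 5 level. Their log2 ratios were -2.91 and -2.62, and -1.64 and -0.74 against PSNL batch 1. The growth factor response gene Egr1 was at 184 CPM against 1643, 567, 712 and 439 CPM, with a ratio of -3.16 and of -1.62 against PSNL batch 1.

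Atf3, a stress-induced transcription factor gene, was at 45.1 CPM against 631, 207, 480 and 220 CPM (log2 ratio -3.80, and -2.20 against PSNL batch 1). The antiproliferative Btg2 was at 196 CPM against 1885, 403, 952 and 305 CPM (-3.27 and -1.04). The heat shock gene Hspa1a was at 132 CPM against 1229, 290, 948 and 191 CPM (-3.22 and -1.14). PSNL batch 2 thus held the highest level of each of these genes, and against PSNL batch 1 only Atf3 of those named here stayed past 4-fold.

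The comparison library weighed on this list. Against PSNL month 2, batch 1, 3 of its genes were called lower, among 120 genes called lower in all. Against sham month 2, batch 2, 7 were, among 82. As reported, 171 genes were called lower in all. For 13 of the 15 the day 5 level was below each of the month 2 libraries. The same time ratio gave 3 lower of 31 in the Pdgfra gate, 11 of 31 in the Sox10 gate and 3 of 30 in the Cdh5 gate. On the Kcnj8 and Abcc9 side of the mural cells 22 of 30 were called lower, with a median of -2.87, and on the Myh11 side 12 of 29.

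Zfp36, which hastens the decay of cytokine messages, was the member of this list whose RefSeq promoter held a CArG box besides Egr2, 2 of 26 genes with a window. It was at 139 CPM against 1321, 444, 535 and 503 CPM (log2 ratio -3.25, and -1.68 against PSNL batch 1). Like Fos and Egr1, it was called lower at day 5 against PSNL batch 2, and a part of the box in this was not tested. The 250 bases before its start, chr7:28379229-28379478 on the minus strand, are shown for that call. The CArG box is in capitals, its first base 58 bases before the start.
Zfp36: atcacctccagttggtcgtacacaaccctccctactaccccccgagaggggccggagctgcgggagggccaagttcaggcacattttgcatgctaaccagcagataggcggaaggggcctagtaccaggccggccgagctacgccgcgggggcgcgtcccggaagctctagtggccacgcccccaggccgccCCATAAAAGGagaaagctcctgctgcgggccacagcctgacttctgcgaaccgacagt
The AP-1 motif TGANTCA was found in 3 of the same 26 genes and in 8.97% of all genes.

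Of 18 cytokines and pain mediators tested 3 were called higher (16.7%) and 1 lower (5.56%), with a median log2 ratio of 0.74. Over all genes 3.03% were called higher and 1.52% lower. The sides differed in their calls: the Myh11 side had Ccl19, Ccl2 and Ccl7 higher and Cxcl10 lower of 16, and the Kcnj8 and Abcc9 side had 0 higher and Cxcl10, Cxcl1, Il6 and Cxcl12 lower of 16. The difference between the sides in this change was not tested. Ccl2, a chemokine that draws monocytes, was at 81.6 CPM against 21.4, 2.72, 9.89 and 0 CPM, a ratio (1.93) below the call over all mural cells, and 39 of its 141 UMIs lay in a single cell. Its relative Ccl7 was called, at 50.4 CPM against 8.80, 0, 1.80 and 0 CPM (2.52), with 87 UMIs in 11 cells. In free RNA of day 5 Ccl2 stood at 109 CPM and Ccl7 at 76.7 CPM, each above the mural level, and in the Pdgfra gate at 241 and 335 CPM.

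Interleukin 6 was carried by few cells. Il6 had 84 UMIs in 20 mural cells, 44 of them in a single cell, and stood at 48.6 CPM against 93.5, 58.6, 45.9 and 21.3 CPM at month 2, within that range. It was called lower on the Kcnj8 and Abcc9 side, with a log2 ratio of -3.74. Il6st, the receptor subunit gp130 shared by interleukin 6 and its relatives, was called higher, at 331 CPM against 67.5, 42.2, 84.5 and 63.7 CPM (log2 ratio 2.29), beside 335 CPM in free RNA, and with a ratio of 1.97 against sham batch 2. Taken alone, neither the Myh11 side (1.92) nor the Kcnj8 and Abcc9 side (1.61) passed the call for Il6st. Cxcl1, which draws neutrophils, was called lower, at 42.3 CPM against 252, 94.0, 235 and 0 CPM (-2.57, and -1.15 against PSNL batch 1), although sham batch 1 had none. The call of Cxcl9 rested on a single cell with 36 of 40 UMIs, and 61 of the 62 Cxcl10 UMIs also lay in a single cell. Ccl11 was at 165 CPM against 89.3 CPM and Ccl19 at 130 CPM against 38.6 CPM, with neither called over all mural cells.

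Growth factor and angiogenic genes had 3 calls of 18 (16.7%), all higher, Flt1, Angptl4 and S1pr2, where 3.03% of all genes were called higher. Flt1, the receptor that traps vascular endothelial growth factor, was at 133 CPM against 19.7 CPM (log2 ratio 2.76), Angptl4 at 99.0 CPM against 16.3 CPM (2.60) and S1pr2 at 13.9 CPM against 3.35 CPM (2.05). Against sham batch 2 Angptl4 (1.92) and S1pr2 (1.95) fell short of 4-fold. Flt1 (1.67), Angptl4 (1.58) and S1pr2 (1.03) were not called on the Kcnj8 and Abcc9 side. On the Myh11 side S1pr2 was not called either, although its ratio there was 2.25. Free RNA held Flt1 at 111 CPM, Angptl4 at 147 CPM and S1pr2 at 18.2 CPM. Pdgfa was at 714 CPM against 394 CPM and Angpt2, which loosens the contact of pericytes and endothelium, at 98.4 CPM against 47.4 CPM, with neither called. In the TGF-beta, BMP and YAP list Ccn2, encoding connective tissue growth factor, was called higher and Bambi lower among 21 genes. The median log2 ratio of the list was -0.22. Each direction made up 4.76%, where 3.03% of all genes were called higher and 1.52% lower. With 1 call each way the list could not be set apart from all genes. Ccn2 stood at 429 CPM against 67.5 CPM (2.67), while on the Kcnj8 and Abcc9 side its ratio was -0.32.

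In the axon guidance and adhesion list 5 of 21 genes were called higher (23.8%) and 0 lower. Among all genes 3.03% were called higher and 1.52% lower. Thy1 (chromosome 9, 44043384 to 44048579, plus strand) was at 353 CPM against 28.9, 24.5, 27.0 and 14.2 CPM (log2 ratio 3.61), in 99 mural cells, beside 36.3 CPM in free RNA and 174 CPM in the Pdgfra gate. It was called on both sides. The hyaluronan receptor Cd44 (2.64), the cadherins Cdh11 (2.51) and Cdh2 (2.11) and the guidance receptor Robo1 (3.20) were the other genes of this list called higher. Against PSNL batch 1 Cdh11 (1.09), Cdh2 (0.98) and Robo1 (1.50) fell short of 4-fold. Cdh11 (0.78), Cdh2 (0.57) and Robo1 (1.67) were not called on the Kcnj8 and Abcc9 side, and for Robo1 no ratio was taken on the Myh11 side. In the list of translation and biosynthesis 7 of 36 were called higher (19.4%) and 0 lower, with a median of 0.77. The 7 were the cytoskeletal genes Tubb6 (2.97), Tmsb10 (2.70) and Tpm4, the annexins Anxa1 and Anxa2 (2.40), and S100a10 and S100a11. Against PSNL batch 1 the Tmsb10 ratio was 0.48, and against sham batch 2 that of Anxa2 was 1.92.

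Over all mural cells, interferon and antigen presentation genes were called higher at 16.7% and NF-kB and JAK-STAT response genes at 4.35%. Of all genes 3.03% were called higher. Lower calls were 0%, 4.35% and 1.52% in the same order. Of 23 NF-kB and JAK-STAT response genes Nfkb2 was called higher (34.1 CPM against 6.71 CPM) and Cebpb lower, the latter at -1.70 against PSNL batch 1. On the Kcnj8 and Abcc9 side Socs3, Irf1, Cebpd, Cebpb and Vcam1 were called lower and Nfkb2 higher of 17, with a median of -0.74, and on the Myh11 side 3 were lower and 1 higher of 20. Of 18 interferon and antigen presentation genes Irf7, Psmb8 and H2-Q7 were called higher and 0 lower, with a median log2 ratio of 1.19, and Psmb8 and H2-Q7 were below their level in free RNA. Against sham batch 2 Psmb8 (0.90) and Irf7 (1.90) fell short of 4-fold, on the Kcnj8 and Abcc9 side Psmb8 (0.69) was not called, and H2-Q7 was called on neither side. Hypoxia and glycolysis gave 0 calls of 25, mitochondrial respiration and lipid uptake 0 of 15, and complement and scavenging 0 of 13. In the Pdgfra gate the same ratio gave 5 of 25 hypoxia genes higher.

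Over all tested genes, members of the lists included, the largest differences over time were read by rule from called genes with at least 50 UMIs in the higher sum and a day 5 level beyond the month 2 range. Among the highest at day 5 stood Mki67, Col15a1, Cks2, Hist1h1b, Hp, Timp1, Acan, Actg2 and Ecscr. Col15a1 had 144 UMIs at day 5 and 0 in PSNL month 2, batch 2, at least 66.3-fold higher by the floor of 3 counts over the group, with sham batch 2 at 7.19 CPM and free RNA of day 5 at 260 CPM against 83.3 CPM in the mural cells. Acan was at 72.4 CPM against 1.68 CPM (log2 ratio 5.43), with its UMIs outside the Kcnj8 and Abcc9 side and free RNA at 6.05 CPM. Of the Hist1h1b UMIs 88 of 106 lay in a single cell, and of the haptoglobin gene Hp 53 of 102. The endothelial gene Ecscr (57.9 CPM) was below its level in free RNA, 194 CPM.

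Lower at day 5 stood Igfbp6, Myoc, Cbx7, Kcnt1, Atf3, Rasd1, Angpt4, Ppp1r15a, Dcn and Btg2. Igfbp6 was at 1.16 CPM (2 UMIs) against 91.4, 5.45, 141 and 14.2 CPM, and its UMIs in PSNL batch 2 lay in 15 of 562 cells. Its log2 ratio of -6.30 became -0.33 without the cells that held a UMI of markers of other cell types. Dcn was at 7.52 CPM against 82.6, 39.5, 248 and 70.8 CPM. Both are fibroblast genes that were abundant in the free RNA of month 2, at 2590 and 7799 CPM. Rasd1, a Ras-related gene induced by dexamethasone, was at 55.0 CPM against 731, 267, 327 and 283 CPM (log2 ratio -3.73), with 11.5 CPM in the Cdh5 gate and 0 in the Pdgfra and Sox10 gates at day 5. On the Kcnj8 and Abcc9 side its ratio was -0.44 and was not called, against -3.77 on the Myh11 side.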

How the data were processed

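The deposited files are raw count matrices of UMIs per gene and barcode (10X 3′ v3), which the authors made with kallisto 0.46.2 and bustools 0.40.0 on GRCm38, with Seurat 4.3 also named in the submitters' processing notes. The annotation release and strand setting are not given in the sources used here. Columns of 5 libraries were read. Counts were summed over cells of a group and scaled to 1000000. Poisson intervals for a level and conditional binomial intervals for a ratio were at 95% and cover counting error only, and PCR or capture bias is not in them. A gene was called at 20 UMIs in the 2 sums, a ratio of at least 4 in either direction and an interval excluding 1, with 3 counts as the floor. On simulated counts drawn from these sums, 49 of 50 genes made 8-fold higher and 50 of 50 made 8-fold lower were called, and 4 of 11028 unchanged genes. The draws were Poisson, without unevenness between cells or spread between libraries. The share of false calls in the data was therefore not tested. Free RNA was summed from barcodes of 10 to 100 UMIs. Scrublet, run through scanpy 1.11.5, was used to mark doublets, and no cell was removed. Cells were thinned with seed 1.

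The Pdgfra, Sox10 and Cdh5 gates took cells with at least 2 UMIs of that gene, 0 of the other gate exclusions and under 5 mural UMIs. The mural cells, the 20 gene lists and the rule for named genes (members of the lists, and the 10 largest ratios in each direction, of which 1 gene is not reported here) were chosen with earlier results of these data known. Coordinates are GENCODE vM21. With 1 day 5 library no test was made. Intervals came from scipy 1.17.1 and sums from numpy 2.4.6 and pandas 2.3.3, under Python 3.11.15. Alternatives changed the gate, the depth, the minimum count, the comparison library and the cells included.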

Additional observations from a re-analysis of the deposited data

How the results depend on the processing

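No paired analysis was possible because a single day 5 library was used here and no test was made. With cells thinned to 3000 UMIs before the gate, 175 genes were called higher over time, 5 of them cell cycle genes, and against other day 5 cells 373 were higher and 732 lower. Without the mural cells that held a UMI of any of a small set of markers of other cell types, 61 cells remained, with 185 genes called higher over time and 6 cell cycle genes. Fewer UMIs or cells enter these sums. A minimum of 50 UMIs tests fewer genes and gave 187 higher and 92 lower over time, with 17 cell cycle genes, and no minimum gave 595 higher over time and 949 higher against other day 5 cells. Against PSNL month 2, batch 1, 518 genes were higher and 3 immediate-early and stress genes lower. Against sham month 2, batch 2, 82 were lower, 7 of them immediate-early and stress genes, and the cause was not tested. On the Kcnj8 and Abcc9 side, with fewer cells, 157 were higher and 110 lower, with 12 matrix and 11 cell cycle genes higher, and Ccn2 (-0.32) and Eln (-0.98) reversed. H2-Q7 reversed on the Myh11 side (-0.13). Cxcl9, carried by a single cell, reversed with 10% of each sum subtracted as free RNA (-1.53) and without the cycling cells (-1.99), when 9 cell cycle genes were higher. That setting and the one without the cells highest in fibroblast markers were chosen after seeing the data. Depth limits genes with few UMIs, and 1 day 5 library limits every comparison over time.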
